A study of Mus musculus with 5 samples.

Results

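The Polycomb genes and the H3K27 demethylase gene Kdm6b were examined as targets of H3K27me3, the histone mark that their own products write, read and remove. The members were 9 genes listed by name: the PRC2 genes Ezh1, Ezh2, Eed and Suz12, the PRC1 genes Cbx2, Cbx6, Cbx7 and Cbx8, and Kdm6b. All 9 were found among the 21951 protein-coding genes of the annotation used here. H3K27me3 ChIP-seq was available as a list of broad peaks for each of 4 libraries of dermal fibroblasts from wild-type mouse skin, of mice on a C57BL/6 background. There were 2 libraries at embryonic stage E14 and 2 at E17, as the labels name the stages, and the paper calls them E14.5 and E18.5. Cells of both stages were labelled wild type, with no other allele or treatment named, and were grown in culture before the chromatin was prepared, so the peaks are those of expanded cells and not of freshly isolated skin. The labels do not say whether replicates came from separate animals, so a test between libraries may measure technical spread only. In such bulk samples, a shorter peak in fewer cells and a weaker mark in every cell cannot be told apart.

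The E14 lists held 21546 and 16574 peaks and the E17 lists 10429 and 7107 peaks, covering 52.8 and 32.1 Mb at E14 and 20.0 and 14.3 Mb at E17. The E14 replicate 2 list stood apart with 1035 peaks on the X chromosome, where the other lists held 58 to 179, and none of the 9 genes is on that chromosome. No read counts come with the lists, and the depth behind a peak is therefore unknown. Windows of 3000 bp around the starts held no peak in any library at 8 fibroblast genes, among them Col1a1, Pdgfra and Vim, and held one in all 4 at 3 of 10 genes of other cell types, namely Sox10, Myod1 and Pax7. Since most protein-coding genes carried no peak either, with 19.5% marked in both E14 libraries, these counts are no check of the labelled cell type.

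H3K27me3 is laid down by PRC2, in which Ezh1 or Ezh2 is the methyltransferase, Suz12 holds the complex together and Eed binds the finished mark and stimulates the enzyme. Cbx2, Cbx6, Cbx7 and Cbx8 are chromodomain proteins that tether canonical PRC1 to the mark, and PRC1 ubiquitinates histone H2A and compacts chromatin. Kdm6b, also called Jmjd3, removes the mark. In mammals, the mark gathers over CpG islands of developmental genes that are kept silent.

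Promoter sequences of 7 of the 9 genes were at hand from RefSeq on GRCm38.p6, each of 300 bp. There was no entry for Cbx2 or Kdm6b. All 7 were rich in CpG, with an observed over expected CpG ratio of 0.758 at Eed to 1.09 at Suz12 and a GC content of 54.7% to 71.7%. A promoter was called CpG-rich at a ratio of at least 0.6 and a GC content of at least 50%, which 33.5% of 32851 promoters met. The share was 48.4% among 4174 promoters of protein-coding genes that carried the mark in both E14 libraries and 46.3% among 15976 other protein-coding promoters. The rule was thus met by Ezh1, Ezh2, Eed, Suz12 and Cbx6 and also by Cbx7 and Cbx8, which had a peak within 3000 bp of a start in all 4 libraries. As all 7 met it, the rule separates none of these genes, and a link of CpG content to the mark was not tested.

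The sequences below stand for these classes and are written 5′ to 3′ on the strand of the gene, with each CG in capitals. Eed and Suz12 were free of peaks at their starts, Cbx8 has its start site in a gap between peaks, and Cbx7 has a start inside a peak at E14. The stretches upstream of the start lie at chr7:89980984-89981226 for Eed (minus strand), chr11:79992856-79993105 for Suz12 (plus strand), chr11:119040970-119041163 for Cbx8 (minus strand) and chr15:79932653-79932896 for Cbx7 (minus strand). No base of the Eed, Suz12 and Cbx8 stretches lay in a peak. Of the Cbx7 stretch of 244 bp, 244 bp lay in a peak in both E14 libraries, 76 bp in E17 replicate 1 and 0 bp in E17 replicate 2.
Eed upstream of the start: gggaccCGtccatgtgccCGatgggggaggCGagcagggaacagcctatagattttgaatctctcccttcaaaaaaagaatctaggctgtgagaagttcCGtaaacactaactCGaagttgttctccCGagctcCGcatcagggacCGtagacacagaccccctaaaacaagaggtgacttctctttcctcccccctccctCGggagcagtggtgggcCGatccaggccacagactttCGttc
Suz12 upstream of the start: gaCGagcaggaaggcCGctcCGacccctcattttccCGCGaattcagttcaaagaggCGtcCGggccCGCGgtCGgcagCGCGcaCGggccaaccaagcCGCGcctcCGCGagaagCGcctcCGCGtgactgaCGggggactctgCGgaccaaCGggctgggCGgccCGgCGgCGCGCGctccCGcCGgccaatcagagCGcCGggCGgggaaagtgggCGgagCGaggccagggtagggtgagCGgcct
Cbx8 upstream of the start: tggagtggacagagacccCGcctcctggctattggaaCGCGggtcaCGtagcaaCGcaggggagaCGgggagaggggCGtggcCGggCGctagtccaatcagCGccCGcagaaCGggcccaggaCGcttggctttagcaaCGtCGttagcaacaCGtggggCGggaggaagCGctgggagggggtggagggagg
Cbx7 upstream of the start: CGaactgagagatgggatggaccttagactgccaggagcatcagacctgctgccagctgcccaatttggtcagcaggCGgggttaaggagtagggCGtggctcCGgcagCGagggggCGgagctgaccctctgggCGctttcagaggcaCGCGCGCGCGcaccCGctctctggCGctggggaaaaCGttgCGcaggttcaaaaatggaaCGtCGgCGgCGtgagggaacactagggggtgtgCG
Beside them stand stretches that were inside a peak in all 4 libraries, at chr11:119041616-119041915 upstream of Cbx8 and at chr15:79933900-79934099 in an intron of Cbx7, both on the minus strand. The Cbx7 stretch lies directly upstream of another annotated start of the gene, so it is not a stretch away from starts. The CpG ratios of these stretches were 0.531 at Cbx8 and 0.504 at Cbx7, and those of the stretches upstream of the starts named above were 0.884 and 0.870. The Cbx7 stretch upstream of the start was itself inside a peak in both E14 libraries, and each printed stretch is only a part of its peak. The ratios therefore do not compare marked with unmarked sequence.
Cbx8 inside the peaks: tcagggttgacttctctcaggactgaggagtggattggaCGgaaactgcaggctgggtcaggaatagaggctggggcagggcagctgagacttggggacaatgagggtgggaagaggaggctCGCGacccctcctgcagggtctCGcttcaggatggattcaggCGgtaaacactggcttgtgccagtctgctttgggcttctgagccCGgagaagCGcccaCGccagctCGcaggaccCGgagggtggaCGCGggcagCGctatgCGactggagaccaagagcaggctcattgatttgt
Cbx7 inside the peaks: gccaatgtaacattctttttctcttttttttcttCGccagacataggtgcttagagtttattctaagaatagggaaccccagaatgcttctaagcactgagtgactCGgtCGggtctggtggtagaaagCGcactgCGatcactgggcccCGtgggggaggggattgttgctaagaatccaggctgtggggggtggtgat

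A gene was called marked in a library when at least 1 bp of a peak lay within 3000 bp of any of its annotated start sites, and the covered length is the number of bp of those windows that lie in peaks. Peaks were found at 4 of the 9 genes in E14 replicate 1, where 24.3% of protein-coding genes had one, and at 3 in E14 replicate 2, where 20.6% had one. They were found at 3 genes in E17 replicate 1 (15.2% of protein-coding genes) and at 2 in E17 replicate 2 (12.8%). Cbx2, Cbx7 and Cbx8 were marked in both E14 libraries, 33.3% of the 9 genes beside 19.5% of protein-coding genes. Cbx7 and Cbx8 were marked in both E17 libraries, 22.2% of the 9 genes beside 12.2%. Counts of 3 and 2 among 9 genes are too small to read a difference from these shares. Cbx7 and Cbx8 were also the 2 genes with a peak in the gene body in both E14 libraries (18.5% of protein-coding genes) and in both E17 libraries (12.0%). Those marked in both E14 libraries were chromodomain readers of PRC1, with 3 of the 4 Cbx genes. Neither Kdm6b nor any of the 4 PRC2 genes was marked in both E14 libraries. Beside the 19.5% of protein-coding genes so marked, these counts are too small to tell the classes apart, and the split was not tested.

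**Figure D1:**
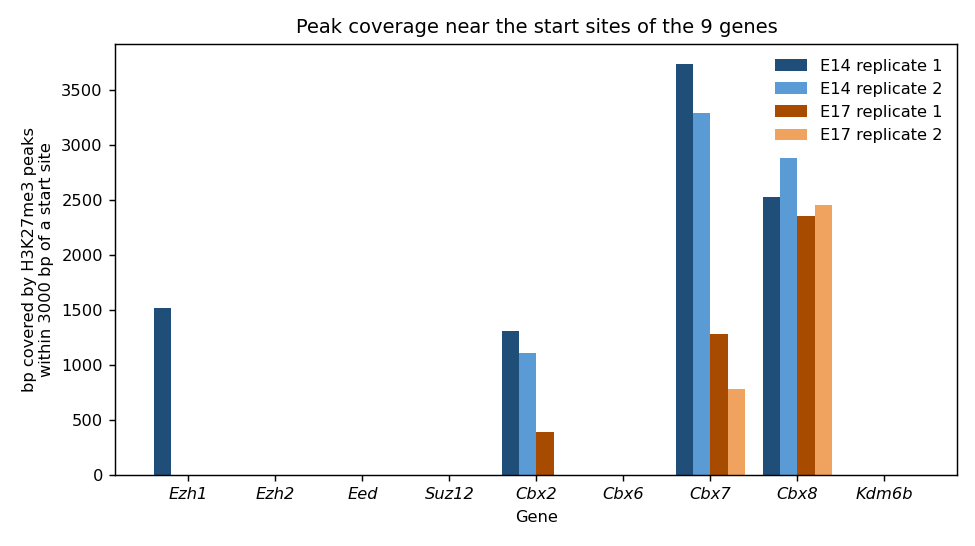
Length in bp covered by H3K27me3 peaks within 3000 bp of the start sites of each of the 9 genes, with 1 bar for each library. Bars at 0 mark the absence of a peak, and Cbx8 is the gene where the E17 bars reach nearest to the E14 bars, at 2354 and 2456 bp against 2524 and 2878 bp.

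Among the PRC2 genes, Ezh2, the main methyltransferase of dividing cells, was at 0 bp in all 4 libraries. Its nearest peak was 12509 and 45971 bp away at E14 and 60769 and 14013 bp away at E17. The gene lies at chr6:47530139-47595341 on the minus strand. Eed, at chr7:89954654-89980983 on the minus strand, was also at 0 bp throughout. Its nearest peak was 12575 bp away in E14 replicate 1 and 450107, 451676 and 321968 bp away in E14 replicate 2, E17 replicate 1 and E17 replicate 2. The near one was weak, at percentile 3.70 of fold enrichment in its list, and lay within 3000 bp of a start of Hikeshi. In the other 3 libraries Eed was the farthest of the 9 genes from a peak. The median protein-coding gene was 29210 and 46226 bp from a peak at E14 and 84971 and 122888 bp at E17.

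Suz12, at chr11:79993106-80034123 on the plus strand, was at 0 bp in all 4 libraries as well. An intergenic peak lay 17205 and 17212 bp from its nearest start at E14 and 18312 and 18609 bp at E17. That peak was present in all 4 lists, and was 4689 and 3751 bp wide at E14 and 1184 and 1356 bp wide at E17. Ezh1, the methyltransferase more abundant in cells that do not divide, lies at chr11:101191115-101226463 on the minus strand. It had 1516 bp covered in E14 replicate 1 and 0 bp in E14 replicate 2, E17 replicate 1 and E17 replicate 2. The peak was upstream of the gene and outside it, 1485 bp from the nearest start, and weak for its list at percentile 41.0. In E14 replicate 2 a peak in the same place began 4350 bp from the start, outside the window. The stages overlapped at 0 bp, and Ezh1 was at p = 1.000 in the two-sided exact permutation test.

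Kdm6b, at chr11:69398508-69413675 on the minus strand, had no peak in the gene body or near a start site in any library. Its nearest peak was in Dnah2, 7409 and 7237 bp from a start at E14. At E17 the nearest peaks were at Efnb3, 145657 bp away, and at Gucy2e, 166776 bp away. Cbx6, at chr15:79823896-79834688 on the minus strand, was the 1 Cbx gene of the 9 that was not marked, with 0 bp in all 4 libraries. The nearest peak was 5897 bp away in E14 replicate 1 and 25694, 26503 and 27359 bp away in E14 replicate 2, E17 replicate 1 and E17 replicate 2, where it lay near a start of Nptxr. Values close to the 3000 bp limit were 2872 bp for a second peak at Cbx2 in E14 replicate 1 and 2818 bp for a peak downstream of the Cbx8 start in E14 replicate 2, both inside. Just outside were 3439, 3554 and 3559 bp for that Cbx8 peak in the other 3 libraries.

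**Figure D2:**
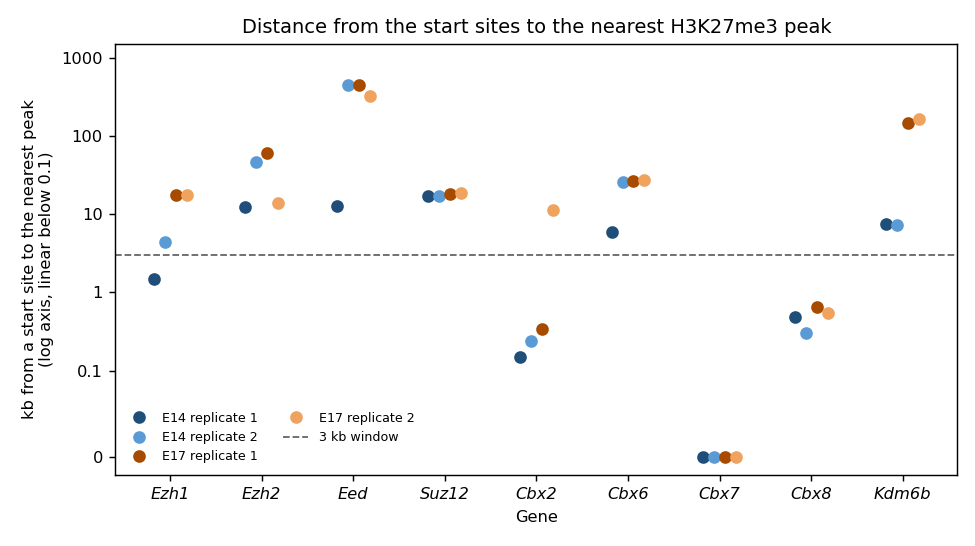
Distance in kb from the nearest start site of each gene to the nearest peak, with 1 point for each library, on an axis that is logarithmic except close to 0. The dashed line marks the window of 3 kb, and Eed and Kdm6b lie over 100 kb from a peak in both E17 libraries.

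Cbx2 was marked at E14 and weakly or not at all at E17. The gene, at chr11:119022962-119031270 on the plus strand, had 1308 and 1104 bp covered in the E14 libraries and 393 and 0 bp in the E17 libraries. Both E17 values were below both E14 values. The mean was 1206 bp ± 144 (SD, n = 2) at E14 and 196 bp ± 278 (SD, n = 2) at E17, a difference of -83.7%. With 2 libraries against 2 the two-sided exact permutation test cannot go below p = 0.333, and Cbx2 was at p = 0.333. The peaks lay upstream and never over the start: their edges were 151 and 240 bp from it at E14 and 337 bp in E17 replicate 1. The peak stood at percentile 88.8 and 89.9 of fold enrichment in the E14 lists and at percentile 13.7 in E17 replicate 1, so the E17 peak was in the lower part of its list. Its −log10 q-value was 7.62 and 8.55 at E14 and 2.27 in E17 replicate 1, close to the limit of the peak call. The median over genes of the strongest peak near a start was percentile 83.7 and 82.1 at E14 and 78.6 and 72.9 at E17.

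Cbx7 was marked in all 4 libraries at internal starts and not at its first. The gene spans chr15:79915807-79971119 on the minus strand, with 9 start sites, and the first lay at least 36684 bp upstream of the peak at the other starts in every library. Its covered length was 3731 and 3292 bp in the E14 libraries and 1279 and 780 bp in the E17 libraries. The stages did not overlap. The mean was 3512 bp ± 310 (SD, n = 2) at E14 and 1030 bp ± 353 (SD, n = 2) at E17, a difference of -70.7% with p = 0.333 in the exact permutation test. Each library had 1 peak near the starts, at percentile 94.1 and 75.1 of fold enrichment at E14 and 80.9 and 71.6 at E17. In E14 replicate 1 the gene body held further peaks of 1102 and 2387 bp in introns, at percentiles 38.5 and 3.93, and in no other library. The upstream neighbour Pdgfb, a growth factor gene, carried a broad peak over its starts of 10070 and 7619 bp at E14 and 7035 and 6115 bp at E17.

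The Cbx7 peaks were narrower at E17 on their downstream side. Relative to the internal coding start at chr15 position 79932652, whose upstream sequence is printed above, the peak reached 1783 bp upstream and 1947 bp downstream in E14 replicate 1, and 1750 bp upstream and 1541 bp downstream in E14 replicate 2. In E17 replicate 1 it reached from 1447 bp upstream only to 169 bp upstream of that start, and in E17 replicate 2 from 1595 bp to 816 bp upstream. The upstream edges thus lay within 336 bp of each other in the 4 libraries, and the start was inside the peak in both E14 libraries and outside it in both E17 libraries. Of the 9 start sites, 7 were inside a peak in each E14 library and 2 in each E17 library. The stretch shared by all 4 libraries was 632 bp long, at chr15:79933468-79934099. A start site inside a peak in both E14 libraries was seen at 58.9% of the 4270 protein-coding genes marked in both, and at 1 of the 3 marked members.

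**Figure D3:**
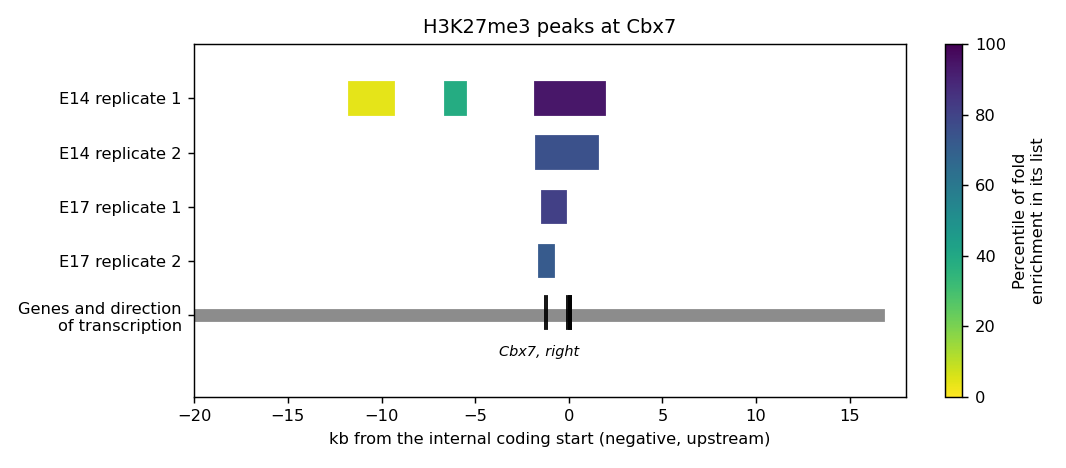
H3K27me3 peaks of each library around the internal coding start of Cbx7 at 0 kb, coloured by the percentile of fold enrichment in the list, with the gene as a grey bar and start sites as black lines. The E14 peaks span the start at 0 kb and the E17 peaks end upstream of it.

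Cbx8 had the smallest relative difference between stages of the 3 genes marked in both E14 libraries. The gene, at chr11:119036305-119040969 on the minus strand, had 2524 and 2878 bp covered in the E14 libraries and 2354 and 2456 bp in the E17 libraries. The stages did not overlap, and 68 bp lay between the lowest E14 and the highest E17 value. The E14 replicate 2 value includes part of a peak downstream of the start, which came within the 3000 bp window at 2818 bp in that library only. The mean was 2701 bp ± 250 (SD, n = 2) at E14 and 2405 bp ± 72.1 (SD, n = 2) at E17, a difference of -11.0% with p = 0.333 in the exact permutation test. The upstream peak was broad and of near equal width in all libraries, 11119 and 11357 bp at E14 and 11091 and 11070 bp at E17. It ran past the 3000 bp window in every library, so its far edge could not change the covered length. Its fold enrichment was 8.15 and 7.46 at E14 and 4.70 and 4.67 at E17, at percentiles 99.5 and 98.7 and then 93.4 and 89.2 of the lists. The widths of this peak thus differed by less than 300 bp over the 4 libraries. Its percentiles stand in lists of unequal length, and the median percentile over genes was lower at E17 as well, as given for Cbx2. With a window of 1000 bp the difference in covered length at Cbx8 was -33.6%, and without E14 replicate 2 it was -4.71%.

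The Cbx8 start itself lay between 2 peaks. The upstream peak ended 477 and 306 bp before the first start at E14 and 647 and 545 bp before it at E17. A second peak at the 3′ end began 3577 and 2956 bp after it at E14 and 3692 and 3697 bp after it at E17, so the gap was 4053 and 3261 bp wide at E14 and 4338 and 4241 bp wide at E17. The second peak was 2885 and 3570 bp wide at E14 and 2747 and 2373 bp wide at E17, and the part of it within the gene was all exonic. It was at percentile 99.9 and 99.8 at E14 and 96.4 and 95.6 at E17. Both flanks of Cbx8 thus held peaks at percentile 89.2 or higher in every list.

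Cbx2 and Cbx8 are neighbours that are transcribed towards each other, with 5034 bp between their 3′ ends and 18007 bp between their starts. The 3′ peak of Cbx8 lay in part in the stretch between the genes, and no peak reached the body of Cbx2. The starts of both genes were outside the peaks in all 4 libraries, and the peaks upstream of each were 11070 to 11357 bp wide at Cbx8 and at most 1682 bp wide at Cbx2.

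**Figure D4:**
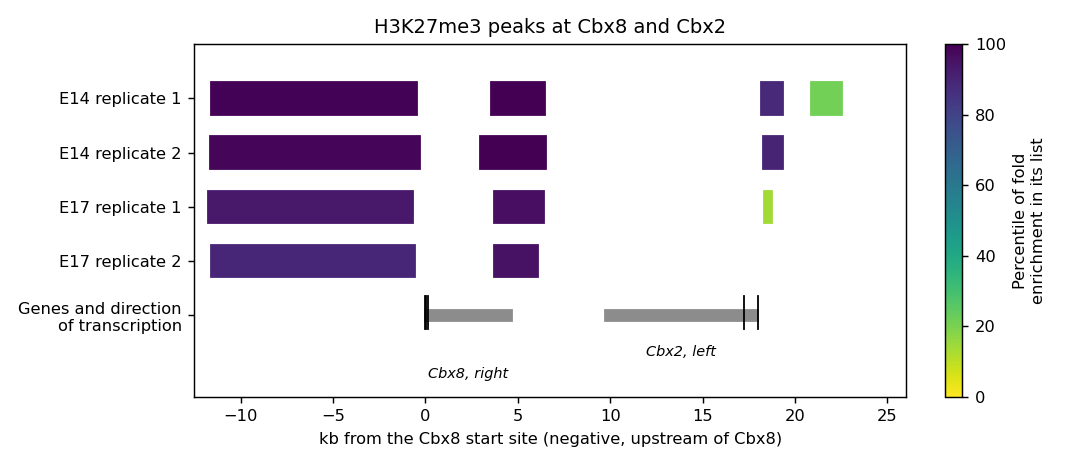
H3K27me3 peaks of each library at Cbx8 and Cbx2, in kb from the Cbx8 start and coloured by the percentile of fold enrichment in the list, with genes as grey bars and start sites as black lines. Peaks leave the starts of both genes uncovered, the broad peaks beside Cbx8 are present in all 4 libraries, and the peak at Cbx2 is absent from E17 replicate 2.

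Summed over the 9 genes, the covered length was 9079 and 7274 bp in the E14 libraries and 4026 and 3236 bp in the E17 libraries. The mean was 8176 bp ± 1276 (SD, n = 2) at E14 and 3631 bp ± 559 (SD, n = 2) at E17, a difference of -55.6% with p = 0.333 in the exact permutation test. Among the 4 genes with a peak in any library, 3 were shorter in both E17 libraries than in both E14 libraries, beside 63.3% of the 5675 protein-coding genes with a peak in any library. Of the 3 members marked in both E14 libraries, all 3 were shorter in both E17 libraries, beside 84.2% of the 4270 protein-coding genes so marked. Over these 4270 genes the median difference was -58.2%, with quartiles of -95.0% and -30.6%. Of these genes, 32.2% had a lower value than Cbx2, 40.6% a lower value than Cbx7 and 90.2% a lower value than Cbx8. The E17 lists were shorter over the whole genome. With every list cut to its 7107 peaks of highest −log10 q-value, which makes the number of peaks equal but not the depth, the summed difference was -53.3%.

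**Figure D5:**
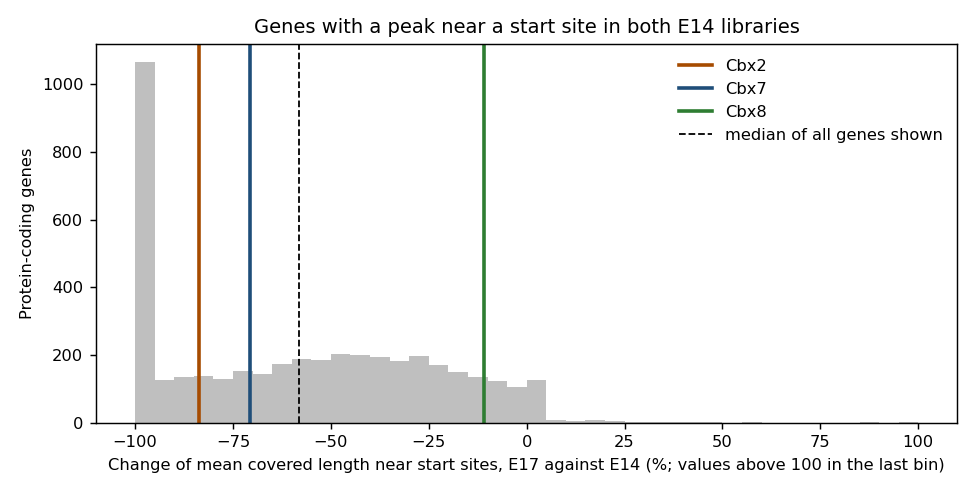
Number of protein-coding genes by the change of mean covered length near start sites, E17 against E14, in percent, over the 4270 genes marked in both E14 libraries. Cbx2 at -83.7% and Cbx7 at -70.7% lie below the median of -58.2%, and Cbx8 at -11.0% lies in the upper part of the range.

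Per length of window, peaks covered 41.1% and 46.9% of the Cbx8 windows at E14 and 38.3% and 40.0% at E17. At Cbx7 they covered 27.9% and 24.6% at E14 and 9.55% and 5.83% at E17. At Cbx2 they covered 19.3% and 16.3% at E14 and 5.81% and 0% at E17. The merged windows of Cbx7, which has more start sites, were 13386 bp long and those of Cbx8 6139 bp. In bp, Cbx7 had more coverage than Cbx8 in both E14 libraries, 3731 and 3292 against 2524 and 2878 bp, and less in both E17 libraries. By percentage of the windows, the order Cbx8, Cbx7, Cbx2 held in each of the 4 libraries. The remaining genes were at 5.50% (Ezh1, in 1 library) or at 0%. The genes most like Cbx2 by the sum of absolute differences of these percentages over the 4 libraries, among 20816 genes, were Nsg1 (2.02 percentage points), Mns1 (3.43) and Frzb (3.79), a secreted Wnt antagonist. For Cbx7 they were the potassium channel gene Kcnh1 (3.10), the glutamate transporter gene Slc17a8 (3.38) and the histamine receptor gene Hrh1 (6.43). For Cbx8 they were Tmem200c (6.71), Ccdc87 (7.15) and Erich1 (8.84).

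A wider list of 37 genes was read with the same windows, all of the same pathway except 3 HP1 genes that read another mark. Both E14 libraries marked 8 of them, which is 21.6%, and both E17 libraries marked 4, which is 10.8%, near the 19.5% and 12.2% of all protein-coding genes. At 26 of the 37 no library held such a peak. All 8 genes marked in both E14 libraries had shorter covered lengths in both E17 libraries, beside the 84.2% of genes so marked. By class, 7 of 19 further PRC1 genes (36.8%) and 1 of 9 further PRC2 genes (11.1%), Epop, were marked in both E14 libraries, beside the 19.5% of protein-coding genes. In both E17 libraries 3 of the 19 (15.8%) and Epop were marked, beside 12.2%. The difference between the classes was not tested and the counts are small. Kdm6a and Uty of the H3K27 demethylase family and 4 genes of the H2A deubiquitinase were marked in no library. The same held for the 3 HP1 genes Cbx1, Cbx3 and Cbx5, whose chromodomains read another mark. Uty is on the Y chromosome, so a library of cells without that chromosome could hold no peak there.

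Epop, which links PRC2 to elongin, had the longest coverage of these 8 genes in each E14 library, with 6001 and 5218 bp at E14 and 3670 and 3886 bp at E17. Bmi1, a PRC1 core subunit, had 2987 and 2891 bp at E14 and 2393 and 1301 bp at E17. Kdm2b, which brings a variant PRC1 to unmethylated CpG islands, had 4925 and 3311 bp at E14 and 2166 and 1179 bp at E17. These were marked at both stages, as was Auts2, a partner of another variant PRC1, with 4329 and 2975 bp at E14 and 1894 and 1488 bp at E17.

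The other 4 were marked in both libraries at E14 only. Pcgf5 had 4806 and 4172 bp at E14 and 2778 and 0 bp at E17. Pcgf3, like Pcgf5 a subunit that defines a variant PRC1, had 1724 and 1535 bp at E14 and 0 bp in both E17 libraries. Phc2, which polymerises in canonical PRC1, had 2065 and 2533 bp at E14 and 0 bp in both E17 libraries. Pcgf1, the partner of Kdm2b in its variant PRC1, had 1491 and 1186 bp at E14 and 193 and 0 bp at E17, in peaks that also lay near a start of its neighbour Tlx2. The X-linked Bcor had 11741 bp in E14 replicate 2, the library with more X peaks, and 0 bp in the other 3.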

How the data were processed

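H3K27me3 ChIP-seq of 4 wild-type dermal fibroblast libraries was read from a broad peak list for each library, and an input library labelled for both stages was not used here. Per the submitters' processing notes, the authors used Bowtie2 2.3.5.1, SAMtools 1.9, MACS2 2.2.7.1 and deepTools 3.5.1 with build mm10 (GRCm38). The paper gives broad peak calling at a q-value of 0.01, with replicates not pooled in the lists. Which control the call used is not given in the sources used here, and subsampling is stated for some libraries without saying whether it covers these. The labels and the paper differ on the culture medium, the shearing of chromatin and the library kit. The lists the authors deposited give each peak a fold enrichment over background, a ratio averaged over the peak, and −log10 p-values and −log10 q-values. They give no read counts, so the depth and counting precision of a peak are unknown.

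Genes and start sites came from GENCODE vM21 on GRCm38. Windows of 3000 bp either side of every start site were merged for each gene. Covered length, presence of a peak with at least 1 bp of overlap, distance and the percentile of a peak's fold enrichment within its own list were computed in Python 3.11.15 with numpy 2.4.6, and values of fold enrichment were ranked only within a list. Covered lengths were read back from simulated peaks with known positions. Stages were compared by the two-sided exact permutation test over 2 against 2 libraries, which has 3 distinct splits. Sequences came from RefSeq promoter entries and the GRCm38 genome. The members and lists were chosen with earlier results of these data known. All 9 members are named, with the genes of a wider Polycomb list that had a peak in both libraries of a stage, Kdm6a, the nearest neighbours of marked members and the 3 protein-coding genes most like each member marked in at least 2 libraries. One gene was left out of the wider list and its counts and is not reported here. Bcor, Uty, the HP1 genes, Tlx2 and the genes at the nearest peaks of unmarked members (Hikeshi, Dnah2, Efnb3, Gucy2e, Nptxr) are named beyond that rule, after their values were seen. Alternatives were the windows of 1000 and 5000 bp, the gene body, coding start sites, minimum −log10 q-values of 3 and 5, a minimum width of 1000 bp, lists of equal number, each library left out and pairing by replicate number.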

Additional observations from a re-analysis of the deposited data

How the results depend on the processing

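The number of members marked in both E17 libraries was 1 in place of 2 with peaks of a −log10 q-value of at least 5 and with peaks of at least 1000 bp, since the peak of Cbx7 in E17 replicate 2 then dropped out. All other counts of members stayed within 1.5 times their values: 3 to 4 genes marked at E14, 2 to 3 at E17, and 3 to 4 genes with shorter coverage at E17. Where a library was left out, the count for its stage rests on the library that remained. The count of 3 at E17 thus came from E17 replicate 1 alone. The window of 5000 bp, and the comparison without E14 replicate 2, added Ezh1 to the E14 count. The summed covered length was lower at E17 in every alternative, with a difference of -50.1% to -60.4% with a library left out and of -50.8% to -62.8% under the other settings. The direction was the same in all 60 recomputed differences. Settings that left Ezh1 with no coverage at E14 gave no difference for it and are not among the 60. Where both E17 values lay below both E14 values, leaving out a library could not change the direction. The difference at Cbx8 was -33.6% with a window of 1000 bp and -4.71% without E14 replicate 2. That at Cbx2 was -67.4% without E17 replicate 2 and -100% without E17 replicate 1. It was also -100% at Cbx2 with minimum −log10 q-values of 3 and 5, a minimum width of 1000 bp and lists of equal number. The labels do not say that a replicate number marks a shared batch. Deviations of same-numbered libraries had a correlation of 0.17 over 5675 genes, and with the replicate number as a block the summed difference was -55.6%. Both E17 sums lay below both E14 sums, so no pairing could change its direction. With 2 libraries a stage no difference could pass a threshold of 0.05, and since depth is unknown, a peak absent from a list may lie just under its threshold.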
